A study of Mus musculus with 42 samples.

Results

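The 10 genes followed here in mouse liver feed peptides to MHC class I or share its induction: Ubd, the immunoproteasome subunits Psmb8, Psmb9 and Psmb10, the proteasome activator subunits Psme1 and Psme2, the peptide transporter subunits Tap1 and Tap2, the loading factor Tapbp, and the class I light chain B2m. They were chosen by name, as the members of this pathway, and were found by their symbols among the 54446 genes of the count table. All 10 passed the filter on low counts that left 15574 tested genes. The differences between the diet groups were already known when the genes were chosen, so their own group differences are given as a description, without a p value.

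The proteasome is the barrel-shaped protease that degrades proteins tagged with ubiquitin, and its 3 catalytic beta subunits can each be replaced by an interferon-induced counterpart, which gives the immunoproteasome. Peptides made in this way are pumped into the endoplasmic reticulum by the TAP transporter and fitted onto class I heavy chains with B2m, so that cytotoxic T cells can inspect them. Ubd encodes FAT10, a ubiquitin-like protein made of a pair of ubiquitin-like domains, which is induced by TNF and interferon gamma, sends its targets straight to the proteasome, and is known from inflamed liver and from steatohepatitis.

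The livers came from 42 female mice carrying the APOE*3-Leiden transgene, a human apolipoprotein variant that makes the lipid profile human-like, and each mouse gave 1 library at the endpoint of 32 weeks. The chow group (10 mice) was kept on maintenance chow as a healthy reference, and its age at the start was not given. Both other groups (16 mice each) were 8 to 14 weeks old when they entered a run-in of 3 weeks on a Western type diet (WTD), whose main additions by weight were 40.5% sucrose, 15% cocoa butter and 1% cholesterol, with 0.05% sodium cholate added from week 22. One of them also received atorvastatin, an inhibitor of cholesterol synthesis, in the diet, at 3.0 mg/kg/day at first and 4.5 mg/kg/day from week 5 (WTD + atorvastatin). The chow group differed from both others in fat, sugar, cholesterol and cholate together, and these cannot be told apart. Its mice also carry labels of another series (AZ) than the mice of both WTD groups (Gen). What the series stand for was not given, and a difference tied to them cannot be told apart from diet.

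The libraries held 15661381 to 36224054 read pairs counted on genes. In 9 libraries (3 chow, 5 WTD, 1 WTD + atorvastatin), over 20% of the genes expected at 1 to 2 CPM had no count, and these are called incomplete here. CPM are counts per 1e6 counts of the library, scaled by TMM, a method that centres on the bulk of genes. When libraries were scaled to their plain totals instead, the median log2 difference of all tested genes was 0.34 for WTD against chow (0.03 with TMM) and -0.16 for WTD + atorvastatin against WTD (0.00 with TMM). Many small differences below therefore depend on the scaling, and values are TMM-scaled unless library totals are named. The liver identity of the samples was plain, since the 7 hepatocyte markers had a median sum of 120991 CPM (chow), 65902 CPM (WTD) and 104172 CPM (WTD + atorvastatin).

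Of the 10 genes 6 lie on chromosome 17 of the mouse genome GRCm38, and Psmb9, Tap1, Psmb8 and Tap2 are packed into 34335 bases of its MHC region. All 10 are protein coding. Ubd itself (ENSMUSG00000035186) occupies chr17:37193892-37196095 on the plus strand in 2 exons, and B2m (ENSMUSG00000060802) occupies chr2:122147686-122153083 on the plus strand. Psme1 and Psme2 are neighbours on chromosome 14, with 5911 bases between them, and Psmb10 is alone on chromosome 8. The promoters of Ubd, the gene with the largest difference of the 10, and of B2m, the most abundant gene, are shown because they differ in the motifs they hold. Each run is the 250 bases before the RefSeq start site on GRCm38.p6, read 5′ to 3′ on the plus strand, with matches to the searched motifs in capitals.
Ubd, chr17:37193642-37193891: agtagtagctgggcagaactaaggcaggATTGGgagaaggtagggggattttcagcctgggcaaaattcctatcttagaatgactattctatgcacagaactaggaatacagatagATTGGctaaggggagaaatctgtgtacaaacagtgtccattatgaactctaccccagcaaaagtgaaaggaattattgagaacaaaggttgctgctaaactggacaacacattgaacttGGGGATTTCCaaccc
B2m, chr2:122147437-122147686: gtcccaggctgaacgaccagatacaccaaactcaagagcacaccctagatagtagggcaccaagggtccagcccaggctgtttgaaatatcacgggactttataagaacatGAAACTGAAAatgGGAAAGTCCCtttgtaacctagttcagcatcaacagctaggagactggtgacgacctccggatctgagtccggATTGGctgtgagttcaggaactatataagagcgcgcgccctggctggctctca
In both promoters the capitals mark CCAAT boxes (CCAAT or ATTGG) and a match on either strand to a 10-letter NF-kappaB-like pattern, which is GGGGATTTCC 15 bases before the Ubd start and GGAAAGTCCC 126 bases before that of B2m. B2m alone of these 2 also holds the core of an interferon-stimulated response element, as GAAACTGAAA 139 bases before its start.

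Over windows of 300 bases (250 before to 50 after the start), RefSeq gave an entry for 9 of the 10 genes. The RefSeq start lies 3579 bases from the GENCODE gene start for Tapbp, 474 for Psmb8, 434 for Psmb9 and 371 for Psme1. Windows at the GENCODE starts were not searched. The NF-kappaB-like pattern was found in 2 of the 9 (Ubd and B2m) and in 5.56% of all 32851 windows, and the response element core in 2 (B2m and Psme1) and in 3.44% of all. The gamma-activated pattern TTCNNNGAA was found in Psmb8 alone, as TTCCCAGAA, and in 8.30% of all windows. No window of the 9 held the cyclic AMP element TGACGTCA, which 1.79% of all windows hold, and the CCAAT box was in 5 of the 9 and in 37.4% of all. The windows of Psmb9 and Tap1, which are transcribed away from each other, share 275 of their 300 bases. A match is a string of letters and says nothing of binding.

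Ubd was nearly absent on chow, was high on WTD and lay in between with atorvastatin. Its level on chow ranged from 0 to 3.57 CPM with a median of 0.28, and 5 of the 10 mice had no count at all, which, at 3 counts and for counting error only, allows a level of up to 0.141 to 0.199 CPM in those libraries. On WTD it ranged from 3.17 to 44.1 CPM with a median of 28.5, and with atorvastatin from 2.25 to 10.4 CPM with a median of 4.93. All but 1 of the 16 WTD mice exceeded the highest chow mouse, as did 11 of the 16 on WTD + atorvastatin. The single low WTD mouse (replicate 15, 75 counts) was from an incomplete library. The other incomplete WTD libraries, replicates 8, 9, 10 and 16, had Ubd at 29.2, 29.4, 27.7 and 30.2 CPM.

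The fitted log2 difference of Ubd between WTD and chow was 4.93 ± 0.56 (SE), with means of 26.7 ± 10.9 (SD, n = 16) and 0.85 ± 1.21 CPM (SD, n = 10). With atorvastatin the mean was 5.63 ± 2.69 CPM (SD, n = 16), and the log2 difference from WTD was -2.24 ± 0.39, which gave Ubd rank 10 from the lowest of all 15574 tested genes. All 16 treated mice lay below the WTD median. Their log2 difference from chow was 2.69 ± 0.51. The groups on WTD with and without the drug overlapped. Without WTD replicate 15 the lowest WTD mouse stood at 10.2 CPM, just under the highest treated mouse at 10.4 CPM.

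**Figure D1:**
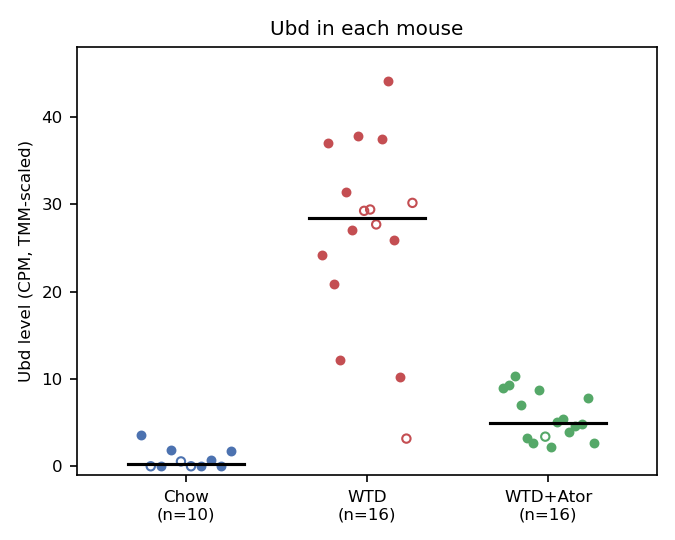
Ubd in each of the 42 mice, in TMM-scaled CPM on a linear axis, by diet group. Each point is 1 mouse, open points are incomplete libraries, and the black line is the group median (0.28 CPM on chow, 28.5 on WTD, 4.93 on WTD + atorvastatin).

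Of the missing chow counts, 2 were in the 3 incomplete chow libraries and 3 in the 7 others. Without all 9 incomplete libraries the median of Ubd was 0.67 CPM on chow, 27.0 on WTD and 5.07 with atorvastatin, and the log2 differences were 4.60 for WTD against chow and -2.26 for the drug. Scaled to library totals they were 5.25 and -2.38. With so few counts on chow the fitted difference varied between methods, and limma-voom gave 6.87 for WTD against chow. The cause of this gap was not tested.

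Macrophage markers were higher on WTD and in part lower with the drug, while other cell types differed in this. Over all tested genes edgeR called 17.5% higher and 16.0% lower for WTD against chow. For the drug against WTD it called 4.84% higher and 2.26% lower. The summed level of the 7 macrophage markers was 157 to 237 CPM on chow, 832 to 2047 on WTD and 659 to 1401 with atorvastatin, with 6 of 6 tested markers higher on WTD than on chow and 3 lower with the drug than on WTD. The defining marker Itgam was at 0 in every mouse and overlaps another gene on the same strand. The sum of the 5 markers of lipid-associated macrophages was 126 to 325, 707 to 2363 and 646 to 1598 CPM, with 5 of 5 markers higher on WTD and 4 lower with the drug. The 7 dendritic cell markers summed to 13.5 to 36.4, 43.3 to 93.3 and 45.1 to 87.8 CPM, with 2 of 7 higher on WTD and 0 called for the drug. Kupffer cell markers summed to 224 to 450, 884 to 2339 and 825 to 1449 CPM, with 2 of 5 higher on WTD, and 1 higher and 1 lower with the drug. Neutrophil markers summed to 4.80 to 29.1, 20.1 to 43.2 and 11.4 to 36.9 CPM, with 3 of 3 tested higher on WTD. For the drug against WTD edgeR, DESeq2 and limma-voom each called 0 of these 3, with 1 at an unadjusted p under 0.05. Cholangiocyte markers (4 of 4 higher on WTD) summed to 16.6 to 37.5, 28.1 to 103 and 28.2 to 88.5 CPM. For the drug against WTD edgeR and DESeq2 called 0 of these 4 and limma-voom 4, with 4 at an unadjusted p under 0.05 by edgeR. Hepatocyte markers went the other way, with 7 of 7 lower on WTD and 4 higher with the drug. The 15 T and NK cell markers summed to 8.67 to 35.1, 11.0 to 39.8 and 16.1 to 30.7 CPM. Of these edgeR called 0 for WTD against chow, with 2 at an unadjusted p under 0.05, while DESeq2 called 1 and limma-voom 2. Of 6 B and plasma cell markers edgeR, DESeq2 and limma-voom each called 0 for WTD against chow, with 3 at an unadjusted p under 0.05 by edgeR. All 6 had a log2 difference below 0 in this comparison, with a median of -0.96. They summed to 6.17 to 193 CPM on chow (median 16.7), 7.82 to 22.1 on WTD and 8.77 to 31.6 with atorvastatin. The part of any of these cells in the level of Ubd was not tested, and in whole liver fewer cells of a type and less RNA per cell cannot be told apart.

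Psmb8, Psmb9 and Psmb10 are the interferon-induced catalytic subunits, and Psmb8 had the largest difference of the 3 between the diets. Its level was 34.1 to 68.8 CPM on chow (median 45.7), 45.9 to 88.5 on WTD (median 57.5) and 45.2 to 64.3 with atorvastatin (median 50.7). All 16 WTD mice were above the chow median and 3 were above every chow mouse, so the groups overlapped. The log2 difference was 0.39 ± 0.09 for WTD against chow and -0.24 ± 0.08 for the drug. Scaled to library totals, these were 0.71 ± 0.10 and -0.41 ± 0.09. The highest WTD mouse was an incomplete library, and without those libraries the WTD mice reached 71.0 CPM.

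Psmb9 stood between 16.3 and 44.6 CPM in all groups, with medians of 25.6 on chow, 27.5 on WTD and 29.5 with atorvastatin. Psmb10 had medians of 54.6, 54.9 and 54.9 CPM. Their log2 differences between WTD and chow were -0.05 ± 0.13 and -0.01 ± 0.11, within the spread between mice, and those for the drug were 0.01 ± 0.12 and -0.14 ± 0.10. With library totals they were 0.27 ± 0.14 and 0.30 ± 0.11 between the diets, and -0.16 ± 0.12 and -0.30 ± 0.10 for the drug. Psmb9 and Psmb10 overlapped in all pairs of groups. Psmb9 overlaps Tap1, and Psmb8 and Tap2 overlap the antisense gene Gm20496, in exons on the opposite strand, and the strand setting of the counting was not given, so their counts are uncertain there.

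The constitutive counterparts that they replace, Psmb5, Psmb6 and Psmb7, were not among the chosen genes and could be tested. By the quasi-likelihood test of edgeR, adjusted over all genes by the Benjamini-Hochberg method, WTD mice had less of all 3 than chow mice, with log2 differences of -0.48 ± 0.09 for Psmb5 (adjusted p = 2.91e-05), -0.43 ± 0.09 for Psmb6 (adjusted p = 4.87e-05) and -0.35 ± 0.08 for Psmb7 (adjusted p = 0.000391). None was called between WTD + atorvastatin and WTD, with adjusted p of 0.161, 0.344 and 0.584. Scaled to library totals the differences between WTD and chow were -0.17, -0.12 and -0.04 and none was called, so the call of lower depends on the scaling. For the drug library totals gave -0.35 for Psmb5 and -0.30 for Psmb6, both called lower, and -0.09 for Psmb7, not called.

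A ratio of a pair of genes within a library does not depend on the scaling. Per base of exon, Psmb8 made up 13.0% to 29.5% of the sum of Psmb8 and Psmb5 on chow (median 19.4%), 24.9% to 40.2% on WTD (median 31.2%) and 25.2% to 39.2% with atorvastatin (median 29.7%). Of the 10 chow mice, 9 were below every WTD mouse, and the drug group overlapped with WTD. Psmb9 was a smaller share of its pair with Psmb6, with medians of 8.80%, 10.7% and 12.5%, and 14 of the 16 WTD mice were above the chow median. The share of Psmb10 in its pair with Psmb7 had medians of 44.2%, 49.8% and 46.8% in the same order, and the 3 groups overlapped widely. With the length of the longest transcript in place of the exon union the shares of Psmb8 were 29.9%, 44.6% and 42.9%, so the order of the groups held while the level of the share did not.

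**Figure D2:**
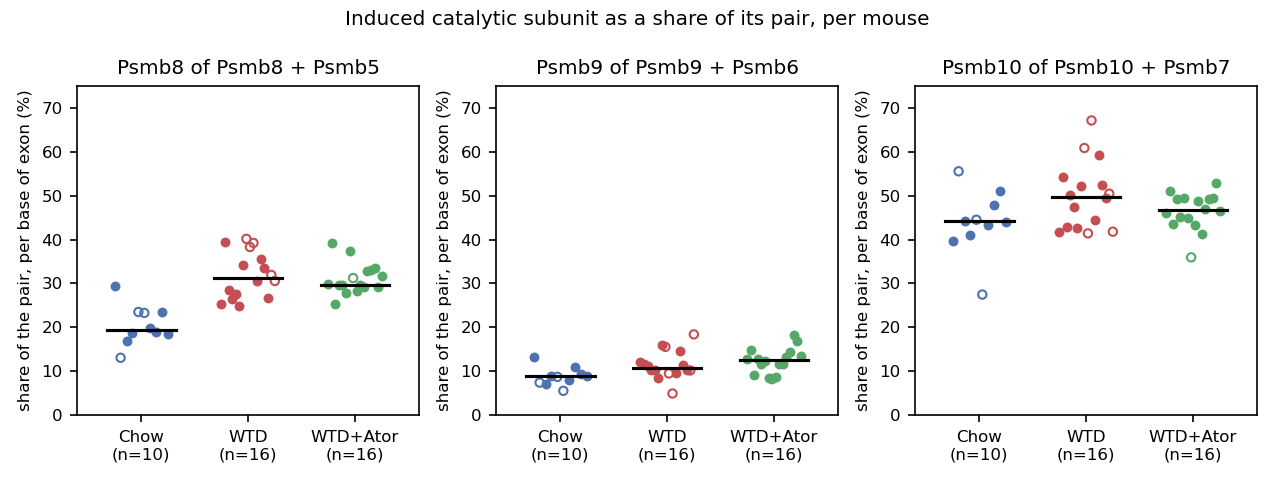
Share of the induced catalytic subunit in its pair, per base of exon, in percent, for each of the 42 mice. Each point is 1 mouse, open points are incomplete libraries and the line is the group median. The Psmb8 share separates 9 of the 10 chow mice from all WTD mice, while the other shares overlap.

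Other subunits of the core particle were lower on WTD only relative to the bulk of genes. Of 11 other 20S subunits, edgeR called 7 lower and 0 higher for WTD against chow, beside 16.0% lower and 17.5% higher over all tested genes. Their median log2 difference was -0.24 against 0.03 over all tested genes. Those with the smallest adjusted p were Psma4 (-0.40 ± 0.07, adjusted p = 1.04e-06), Psmb3 (-0.36 ± 0.07, adjusted p = 3.16e-05) and Psmb4 (-0.31 ± 0.06, adjusted p = 3.32e-05). The count was 5 with DESeq2, 8 with limma-voom, and 4 with RLE, with at least 10 counts in every mouse and with only the 2 groups compared. With library totals 0 of the 11 were called lower and 1 higher, and Psma4, Psmb3 and Psmb4 stood at -0.09, -0.05 and 0.0048. Pomp, which assembles new particles, was lower by edgeR (-0.44 ± 0.07, adjusted p = 9.35e-07), as was the assembly chaperone Psmg1 (-0.40 ± 0.09, adjusted p = 0.000445). Neither was called with library totals (-0.13 and -0.08). Between the drug group and WTD edgeR called 0 of the 11, 1 had an unadjusted p under 0.05, and DESeq2 called 1 and limma-voom 0.

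Psme1 and Psme2 encode the alpha and beta chains of the PA28 ring, which caps the core and eases the exit of peptides. Psme2 was lower on both Western diets, at 96.4 to 139 CPM on chow (median 124), 80.9 to 126 on WTD (median 98.2) and 74.2 to 110 with atorvastatin (median 98.0). The groups overlapped, with 15 of 16 WTD mice and 16 of 16 treated mice below the chow median. The log2 difference from chow was -0.28 ± 0.07 on WTD and -0.36 ± 0.07 with atorvastatin. Scaled to library totals, these became 0.03 ± 0.07 and -0.21 ± 0.07, so that on WTD the lower value was gone. The difference of the drug from WTD was -0.08 with TMM and -0.24 ± 0.06 with library totals.

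Psme1 had medians of 131, 117 and 118 CPM, with log2 differences of -0.12 ± 0.08 for WTD and -0.19 ± 0.08 for WTD + atorvastatin against chow. The SD of log2 CPM between single mice was 0.21 on chow, 0.22 on WTD and 0.13 with atorvastatin. With library totals the 2 differences were 0.20 ± 0.09 and -0.04 ± 0.08. The other activator Psme3, a nuclear ring of another kind, was at 0.25 ± 0.09 for WTD against chow by edgeR (adjusted p = 0.0169), short of the threshold of 0.01 but called with library totals (0.56 ± 0.10), and at 0.32 ± 0.09 for WTD + atorvastatin against chow (adjusted p = 0.00264).

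**Figure D3:**
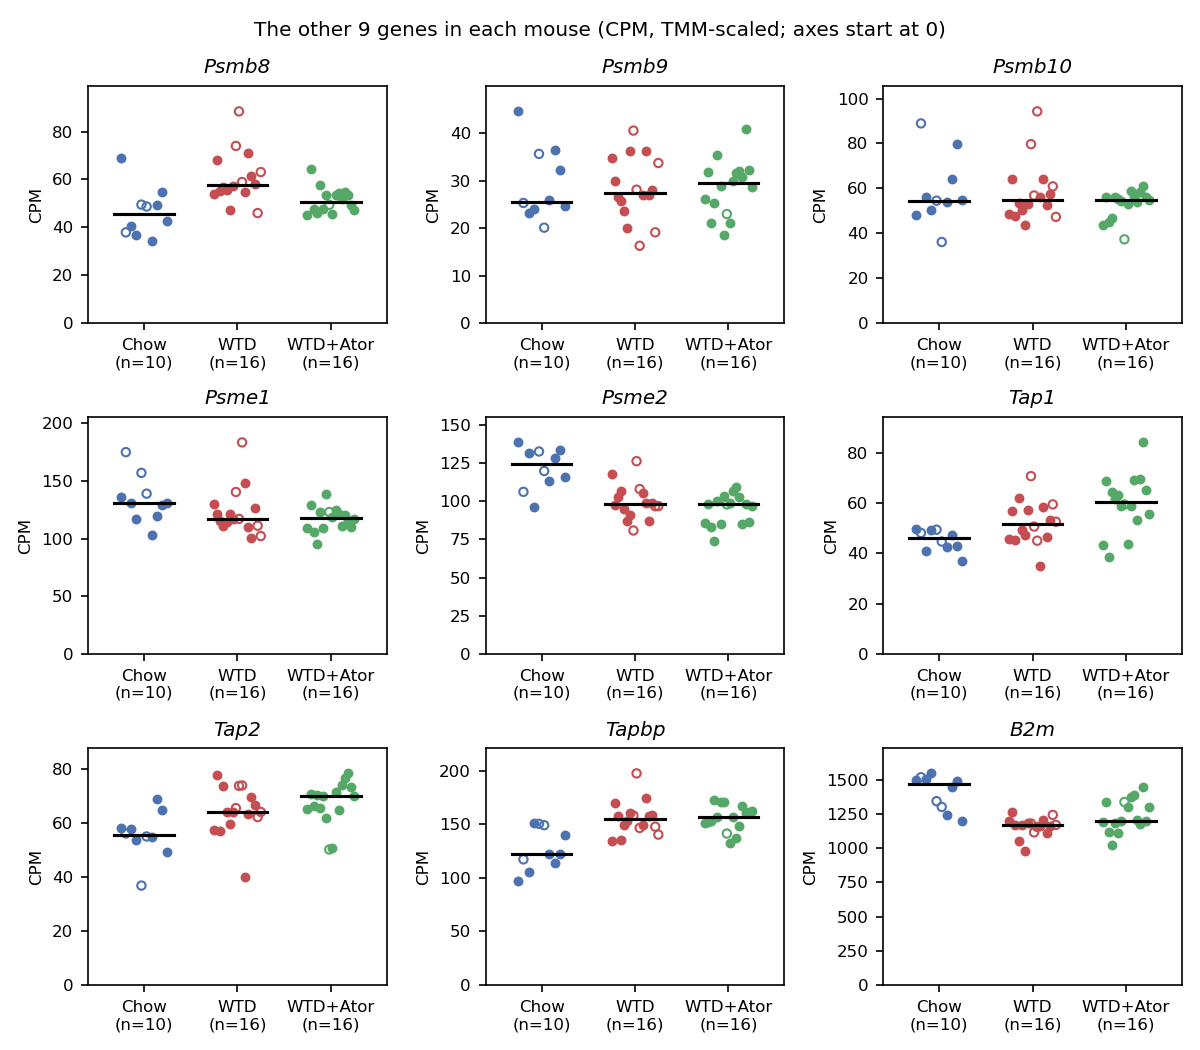
The 9 genes other than Ubd in each mouse, in TMM-scaled CPM, with axes that start at 0. Each point is 1 mouse, open points are incomplete libraries and the line is the group median. Psmb8 and Tapbp are shifted up on WTD, Psme2 and B2m are shifted down, and the groups overlap in every panel.

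Tap1 and Tap2 form the peptide pump, and both had their highest median in TMM-scaled CPM with atorvastatin. Tap1 ranged from 36.9 to 49.5 CPM on chow (median 46.1), from 35.1 to 70.6 on WTD (median 51.6) and from 38.7 to 84.0 with atorvastatin (median 60.5). Of the 16 treated mice 13 were above every chow mouse, as were 9 of the 16 WTD mice. Its log2 differences were 0.21 ± 0.10 for WTD against chow, 0.20 ± 0.08 for the drug against WTD and 0.41 ± 0.10 for WTD + atorvastatin against chow. The spread of Tap1 was also wider on the Western diets, with an SD of log2 CPM of 0.14 on chow, 0.24 on WTD and 0.29 with atorvastatin, a difference in spread that was not tested.

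Tap2 ranged from 36.8 to 68.9 CPM on chow (median 55.5), from 40.1 to 77.7 on WTD (median 64.1) and from 50.1 to 78.3 with atorvastatin (median 69.8). The lowest chow and the lowest treated mouse were incomplete libraries. The log2 difference from chow was 0.22 ± 0.09 on WTD and 0.28 ± 0.09 with atorvastatin. The call of the latter depended on single mice, being made in 28 of 42 fits that left out 1 mouse. The drug group differed from WTD by 0.06 ± 0.07. Under library totals both pump subunits were higher on WTD than on chow (0.52 ± 0.10 for Tap1 and 0.54 ± 0.09 for Tap2), and the differences of the drug from WTD were 0.03 ± 0.08 and -0.10 ± 0.08.

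Tapbp encodes tapasin, which bridges the pump and the empty class I molecule and edits its peptide. It was higher on both Western diets, at 96.6 to 151 CPM on chow (median 122), 134 to 197 on WTD (median 155) and 132 to 172 with atorvastatin (median 157). Every WTD mouse and every treated mouse was above the chow median, and 9 and 11 of the 16 were above every chow mouse. The log2 difference was 0.30 ± 0.07 against chow in both groups and 0.00 ± 0.06 between them (-0.16 ± 0.07 with library totals). Tapbp overlaps Zbtb22 on the same strand in 149 bases of exon, and Zbtb22 had no count in any mouse. It also overlaps the antisense gene Gm19412 on the opposite strand in 904 bases of exon, so its counts are uncertain there.

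B2m, the light chain shared by all class I molecules, was by far the most abundant of the 10. It stood at 1197 to 1548 CPM on chow (median 1472), at 977 to 1263 on WTD (median 1171) and at 1023 to 1447 with atorvastatin (median 1202). Of the 16 WTD mice 12 were below every chow mouse, and so were 7 of the 16 treated mice. The log2 difference was -0.29 ± 0.06 for WTD against chow, 0.10 ± 0.05 for the drug and -0.18 ± 0.06 for WTD + atorvastatin against chow. With library totals the difference was -0.06 ± 0.05 for the drug and 0.03 ± 0.06 between WTD and chow, so that B2m was lower relative to the bulk of other genes but not as a share of all counts.

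**Figure D4:**
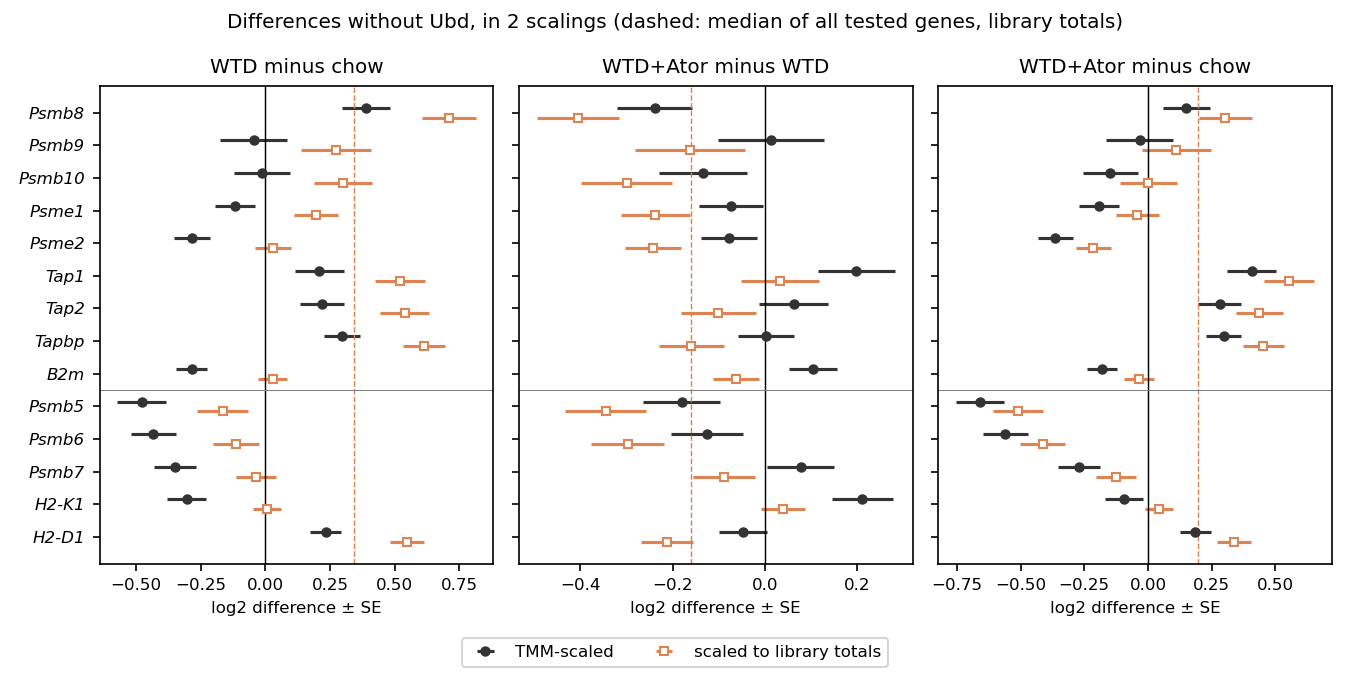
Log2 differences with their SE for the 9 genes other than Ubd and, below the line, for 5 non-member genes of the pathway. Black circles are TMM-scaled, orange squares are scaled to library totals, and the dashed line is the median of all tested genes in that second scaling (0.34, -0.16 and 0.20). The second scaling moves the plotted genes by nearly the same amount, so Psmb8, Tap1, Tap2 and Tapbp are above 0 for WTD minus chow in both, while Psme2 and B2m go from below 0 to about 0.

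At an adjusted p under 0.01, 5 of the 10 genes would count as called for WTD against chow (Ubd, Psmb8 and Tapbp higher, Psme2 and B2m lower), where 33.5% of all tested genes were called (17.5% higher and 16.0% lower). For WTD + atorvastatin against WTD 1 would count (Ubd, lower) beside 7.1% of all genes (4.84% higher and 2.26% lower), and for WTD + atorvastatin against chow 5 (Ubd, Tap1, Tap2 and Tapbp higher, Psme2 lower) beside 25.0% (14.2% higher and 10.7% lower). The groups overlapped for all 10 genes in each comparison, while they did not overlap for 5.83% of all genes for WTD against chow (3.4% with WTD higher), 0.00642% for the drug against WTD (0.00642% with the drug higher) and 4.37% for WTD + atorvastatin against chow (2.88% with the drug group higher). Since these contrasts were known when the genes were chosen, nothing is read from the counts. The median log2 difference of the 10 was 0.10, -0.04 and 0.06 in these comparisons, beside 0.03, 0.00 and 0.04 over all tested genes. The comparisons share mice, so their values are set side by side only.

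Per length, in TPM (each gene's share of all transcripts per 1e6), B2m led the order of the genes, and its medians were 3760 (chow), 4068 (WTD) and 3738 TPM (WTD + atorvastatin). Psme2 and Psme1 followed, at 156 and 133 TPM on chow, and their order turned with the drug (138 and 139 TPM), where the 2 genes did not differ beyond their spread. Tapbp (74.1 TPM) and Psmb10 (73.4 TPM) came next on chow and likewise did not differ beyond their spread, while on WTD they stood at 126 and 97.1 TPM. Tap2, Psmb8, Tap1 and Psmb9 lay between 33.6 and 15.7 TPM on chow. Ubd was last of the 10 on chow at 0.69 TPM, at rank 6 on WTD at 92.5 TPM, next to Psmb10, and last again with atorvastatin at 13.3 TPM. Part of this order depends on the length used. With the longest transcript Psme2 and Psme1 stood at 205 and 124 TPM with atorvastatin, and on chow Psmb10 (77.0 TPM) was above Tapbp (74.6 TPM), while Ubd kept its ranks. TPM are shares of all transcripts and follow the library totals, so they were used to order genes within a group only.

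The heavy chains that B2m joins moved both ways. Of 14 class I genes, 5 were higher and 5 lower on WTD than on chow by edgeR, beside 17.5% higher and 16.0% lower over all tested genes. H2-K1 was lower (-0.30 ± 0.07, adjusted p = 0.000601) and H2-D1 higher (0.23 ± 0.06, adjusted p = 0.00122), although both are classical chains, with WTD means of 1582 and 1207 CPM, and H2-K1 stood at 0.0053 under library totals. The secreted liver chain H2-Q10 was lower (-0.70 ± 0.09, adjusted p = 3.01e-09), as was the lipid-presenting Cd1d1 (-1.31 ± 0.10, adjusted p = 1.52e-15), while H2-M3 was higher (1.04 ± 0.16, adjusted p = 2.39e-07). With atorvastatin Cd1d1 was higher than on WTD (0.46 ± 0.09, adjusted p = 0.000322), and so were H2-Q6 (0.53 ± 0.08, adjusted p = 1.86e-05) and H2-Q7 (0.39 ± 0.09, adjusted p = 0.00264). The call of H2-Q7 was lost without the 9 incomplete libraries and with library totals (0.21 ± 0.09). With library totals 7 of the 14 were higher and 2 lower on WTD, beside 5148 higher and 1101 lower of all 15574 tested genes. Class I genes are near copies of each other, so reads may be lost or split between them.

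Of the 5 genes for loading and trimming in the endoplasmic reticulum, the chaperone Calr (-0.49 ± 0.08, adjusted p = 1.51e-06) and the disulfide isomerase Pdia3 (-0.39 ± 0.09, adjusted p = 0.000553) were lower on WTD. Canx, the peptide trimmer Erap1 and Tapbpl were not called, with log2 differences of -0.13 ± 0.07, -0.03 ± 0.10 and -0.0049 ± 0.12. With library totals none of the 5 was called, with -0.17 ± 0.09 for Calr and -0.07 ± 0.11 for Pdia3. Both serve the folding of many proteins besides class I.

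Among upstream genes, 9 of 21 tested regulators and receptors were higher and 3 lower on WTD than on chow, beside 17.5% higher and 16.0% lower over all tested genes. Both chains of the interferon gamma receptor were higher, Ifngr1 by 1.22 ± 0.12 (adjusted p = 9.45e-13) and Ifngr2 by 1.07 ± 0.12 (adjusted p = 1.95e-10), as was the TNF receptor Tnfrsf1b (1.19 ± 0.08, adjusted p = 7.25e-18). Stat2 was lower (-0.75 ± 0.09, adjusted p = 4.40e-10) and Irf1 was not called (-0.11 ± 0.09, adjusted p = 0.350). Nlrc5, the transactivator of class I genes, was lower (-0.46 ± 0.12, adjusted p = 0.00162), although under library totals it was at -0.15 and not called. With atorvastatin Ifngr2 was lower (-0.38 ± 0.10, adjusted p = 0.00766) and Stat2 higher (0.30 ± 0.08, adjusted p = 0.00653) than on WTD. The call of Stat2 was lost with DESeq2, RLE, upper-quartile scaling, at least 10 counts in every mouse and library totals (0.14 ± 0.08), and was made in 30 of 42 fits that left out 1 mouse. That of Ifngr2 was made in 27 of these 42.

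Of the 8 ligands 4 were too low to test. Ifng had 40 counts in all 42 mice together and was not tested, and Ifnb1 and Ifnl2 were at 0 in every mouse (these, and other untested genes, are named because of their counts). Ifnl2 overlaps another gene on the same strand, so its 0 is uncertain. Tnf was at 1.93 ± 0.64 for WTD against chow by edgeR (adjusted p = 0.0114), just short of the threshold, and called with library totals (2.26 ± 0.65). Ltb, a TNF family ligand, was higher on WTD (1.20 ± 0.30, adjusted p = 0.000942), and Il18 was lower (-0.66 ± 0.19, adjusted p = 0.00320) but not called with library totals (-0.35 ± 0.18).

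Interferon response genes outside the pathway went both ways with TMM. Of 22 tested, 6 were higher and 3 lower on WTD by edgeR, beside 17.5% higher and 16.0% lower over all tested genes. Ifit2 (2.14 ± 0.17, adjusted p = 1.03e-15), Oasl2 (1.65 ± 0.14, adjusted p = 2.57e-14) and Oas1a (1.72 ± 0.19, adjusted p = 5.09e-11) were among the higher ones. The GTPase Iigp1 (-0.91 ± 0.11, adjusted p = 2.11e-09) was among the lower ones. With atorvastatin the log2 differences of Ifit2, Oasl2 and Oas1a from WTD were -0.0029, -0.10 and -0.11, with adjusted p of 0.994, 0.666 and 0.732, beside -2.24 for Ubd, and this contrast between the genes was not tested. Iigp1 was higher with the drug (0.42 ± 0.10, adjusted p = 0.00236), though not with library totals (0.25 ± 0.09). With library totals 12 of the 22 were higher and 1 lower on WTD, beside 5148 higher and 1101 lower of all 15574 tested genes. Gbp4, Gbp6, Igtp, Ifi47 and Tgtp1 were at 0 in every mouse, and each overlaps another gene on the same strand.

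Of 10 genes for conjugation of FAT10 and ISG15, 1 was called for WTD against chow by edgeR, beside 33.5% of all tested genes. It was the deacetylase Hdac6, which was lower (-0.46 ± 0.11, adjusted p = 0.000620). Ube2z, the conjugating enzyme of FAT10, was at 0.25 ± 0.09 (adjusted p = 0.0163). With library totals 7 of the 10 were higher on WTD, Ube2z among them (0.56 ± 0.09), beside 5148 of all 15574 tested genes. Hdac6 was then not called (-0.15 ± 0.11). For the drug against WTD edgeR called 0 of the 10, 3 had an unadjusted p under 0.05, and DESeq2 called 0 and limma-voom 3.

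Across the mice of 1 group, which is not the contrast the genes were known from, few pairs of the 10 genes passed a test of correlation. Of 45 pairs, 0 were correlated in the 16 WTD mice by a permutation test (p adjusted over the pairs of both WTD groups together, threshold 0.05), with a median Pearson r of 0.16 and 4 pairs at an unadjusted p under 0.05. In the 16 mice on WTD + atorvastatin the median r was 0.28, and 15 pairs had an unadjusted p under 0.05. Of these 2 passed, Psme1 with Psme2 (r = 0.76, rho = 0.72, permutation adjusted p = 0.0225) and Psme2 with B2m (r = 0.78, rho = 0.71, permutation adjusted p = 0.0225). Without the 2 mice farthest from the median the r were 0.63 and 0.62. By Spearman's rho 0 pairs passed, with an adjusted permutation p of 0.0676 for each of these 2. Ubd was in none of the pairs that passed, with r from -0.26 to 0.48 on WTD and from -0.29 to 0.28 with atorvastatin.

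**Figure D5:**
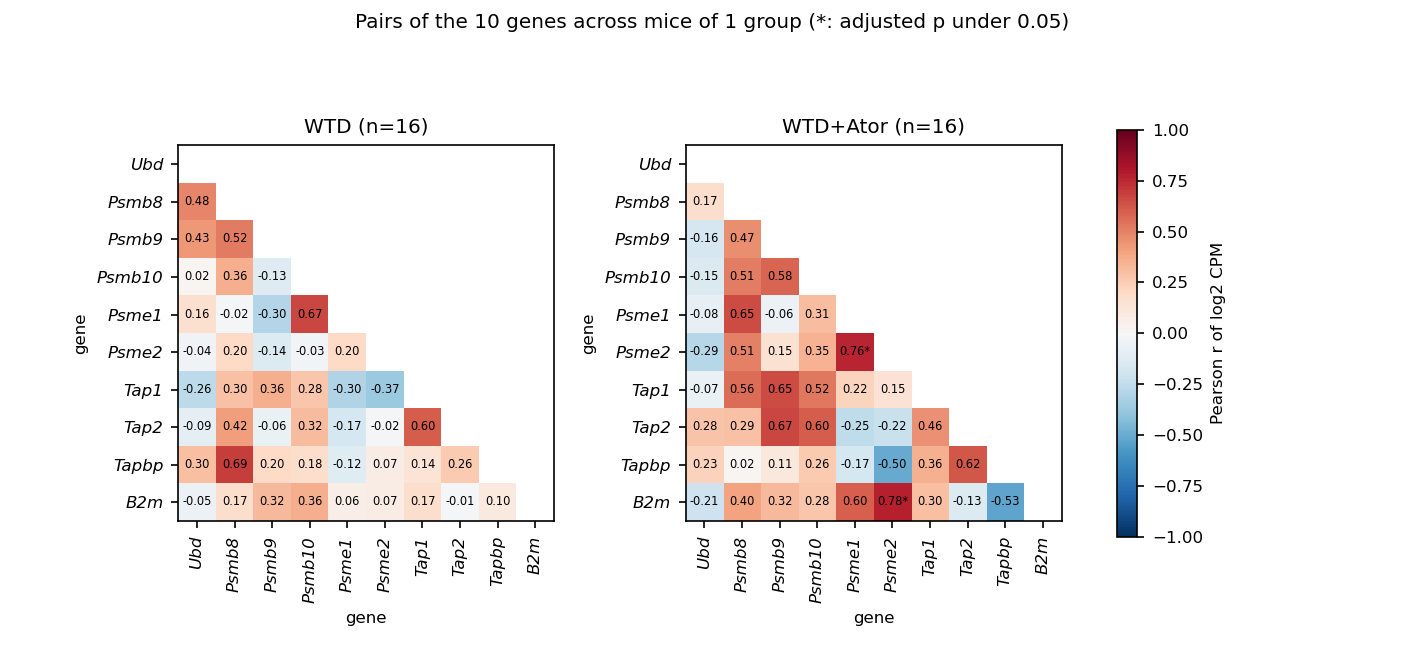
Pearson r of log2 CPM for the 45 pairs of the 10 genes across the 16 WTD mice (left) and the 16 mice on WTD + atorvastatin (right). Colour runs from blue (negative) to red (positive), and an asterisk marks an adjusted permutation p under 0.05, which only Psme1 with Psme2 (0.76) and Psme2 with B2m (0.78) reach, both in the drug group.

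After the mean of each group was taken off, the genes whose log2 CPM was most like that of Ubd over the 42 mice, among 10930 with at least 100 counts on average, were the kinase Stk17b (r = 0.75), AU020206 (r = 0.71) and H2-Aa (r = 0.71), an MHC class II chain. The nearest of the other 9 genes to Ubd was Psmb8, at r = 0.36 and rank 675. The SD of log2 CPM of Ubd was 2.20 on chow, 0.94 on WTD and 0.71 with atorvastatin. On chow 5 of the 10 mice had no count, so these r of Ubd rest in large part on values near the floor. Psmb8 was most like Gimap4 (r = 0.68), Plac8 (r = 0.60) and Pbxip1 (r = 0.60), and Psmb9 most like H2-Q5 (r = 0.59) and Acyp1 (r = 0.57), with Psmb8 at rank 3 (r = 0.56). B2m was most like AW112010 (r = 0.65), mt-Rnr2 (r = 0.61) and Cd302 (r = 0.60). These mice share library depth and liver composition, and the values are a description.

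The remaining genes had other neighbours. Psme2 was most like the respiratory chain genes Ndufb3 (r = 0.74), Ndufb10 (r = 0.69) and Atp5h (r = 0.68), and Psme1 was most like Rpl18 (r = 0.69), Use1 (r = 0.69) and Rpl17 (r = 0.69). Tap1 was most like Slc36a1 (r = 0.56), Il6ra (r = 0.54) and Iigp1 (r = 0.53), with Psmb9, its neighbour on the chromosome, at rank 23 (r = 0.48). Psmb9 and Tap1 overlap on opposite strands in 212 bases of exon. Tap2 was most like Slc27a1 (r = 0.63), Btk (r = 0.62) and Tent5c (r = 0.62). Tapbp was most like Acvr1b (r = 0.64), Angptl2 (r = 0.63) and Ripk2 (r = 0.62). Psmb10 was most like Tubgcp3 (r = 0.70), Adck5 (r = 0.64) and Rnf135 (r = 0.63).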

How the data were processed

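Liver RNA of 42 mice was sequenced as paired, strand-specific libraries. Per the labels, the authors trimmed reads with Trimmomatic, used STAR 2.5 for alignment to GRCm38 and HTSeq 0.6.1p1 for counting, and the deposited values are raw counts per gene. The strand setting of the counting was not given in the sources used here. Reads called ambiguous were 5.43% to 6.57% of each library and stayed out of library sizes. Low counts were removed by filterByExpr (at least 10 counts, 15 in total). The 3 groups entered 1 quasi-likelihood fit in edgeR 4.0.16 after TMM scaling, with Benjamini-Hochberg adjustment over 15574 genes and a threshold of 0.01. Mice are the replicates, so the edgeR p-values set a group difference against the spread between mice. The 10 genes, the gene lists and the tests were chosen with earlier results of these data known. Named genes were taken from the 10, Psmb5, Psmb6, Psmb7, H2-K1, H2-D1, Irf1 and Nlrc5, in each list up to 3 genes with the smallest p for WTD against chow and up to 3 for the drug against WTD, all genes of lists of 5 or fewer, and the 3 genes most correlated with each of the 10. Marker lists are given as sums and counts, and a further gene of this rule is not reported here. Correlations used log2 CPM (prior count 2) and 100000 permutations, two-sided. Alternatives were DESeq2 1.42.0, limma-voom with quality weights (limma 3.58.1), other scalings and filters, fewer libraries and each mouse left out. Scaling to library totals was added after seeing the data. Positions are from GENCODE vM21, which matched 54409 of the 54446 gene identifiers.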

Additional observations from a re-analysis of the deposited data

Results flagged for a closer look

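Within the chow group, 1 sample narrowly passed Dixon's gap test, which sets the gap to the next value against the range (ratio 0.469, cutoff 0.466). Chow replicate 1 had Ubd at 3.57 CPM (60 counts), above 1.90 CPM in the next mouse, while 5 of the 10 chow mice had no count. The 10 genes were each examined in this way in the chow group, and 1 passed. Chance alone gives about 1 in 20 groups for normally spread values. Ubd on chow, with its missing counts, is not spread in this way, so this rate need not hold.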

How the results depend on the processing

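No paired analysis was possible because the labels give each mouse its own name and share none between groups. Ubd kept its direction in all 3 comparisons under each alternative that tested it, at 4.60 to 6.87 for WTD against chow and -2.43 to -2.23 for the drug. This is a description only, since these contrasts were known when the genes were chosen. With a log2 change of at least 1 also required, 2151, 100 and 1288 genes and 1, 1 and 1 of the 10 genes were called for WTD against chow, WTD + atorvastatin against WTD and WTD + atorvastatin against chow. For the drug against WTD, 1106 called genes became 3145 with limma-voom, 1664 without the 9 incomplete libraries and 2021 at an adjusted p under 0.05. Of the 10 genes, 1 became 0 with at least 10 counts in every mouse (Ubd was then not tested). It became 2 at an adjusted p under 0.05 and 3 with library totals (Ubd, Psmb8 and Psme2, all lower). The share of higher calls for the drug against WTD was 68.2%, against 50.9% with DESeq2, 54.9% with RLE and 24.4% with library totals. For WTD against chow it was 52.2%, against 82.4% with library totals. Library totals turned the WTD against chow differences of Psme2 to 0.029, B2m to 0.028, Psmb4 to 0.0048, Psma3 to 0.080, H2-K1 to 0.0053 and Irf1 to 0.20, and those for the drug of Psmb7 to -0.089 and Irf1 to -0.14. Irf1 also turned for the drug with DESeq2 (-0.0082), RLE (-0.0082) and at least 10 counts in every mouse (-0.0048). Correlated pairs became 1 with RLE and 2 without incomplete libraries on WTD, and 0 by Spearman's rho with atorvastatin. Leaving out 1 mouse gave 4952 to 5384 called genes and 5 to 6 of the 10 for WTD against chow, 913 to 1575 and 1 to 1 for the drug, and 3651 to 4101 and 4 to 6 for WTD + atorvastatin against chow. The cause of these shifts was not tested. Ubd on chow and Ifng had few counts, which limits what can be read from them.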
